A study of Mus musculus with 9 samples.

Results

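The genes described here are the Wnt ligands, their Frizzled receptors, and the secreted proteins that limit or strengthen Wnt signals: the secreted Frizzled-related proteins (Sfrp), the Dickkopf proteins (Dkk) and the R-spondins (Rspo). They were chosen by gene symbol. Of the 34590 genes listed in the count files, 42 carried such a symbol, and the 32 with a summed count of 90 or more over the 9 libraries are described. The tissue was mouse telencephalon at E12.5, from which the cortex and striatum develop, and its RNA was sequenced. The groups were 4 embryos with a double knockout of Lats1 and Lats2 driven by Nestin-Cre (dKO) and 5 wild-type (WT) embryos, 1 library each, all of a mixed strain background. Nestin-Cre acts mainly in neural progenitors and their descendants, so vessels, meninges and blood cells in the same tissue are expected to keep both genes. The same counted number of cells went into each extraction, and synthetic ERCC RNAs were added per cell before RNA was purified. The labels give neither litters nor the floxed exons, nor the Cre status of the WT embryos.

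Wnt proteins are lipid-modified secreted ligands. They bind Frizzled receptors, with Lrp5 or Lrp6 to stabilise β-catenin, or with co-receptors such as Ror2 and Ryk to act without it. Sfrp proteins bind Wnts outside the cell, Dkk1 blocks the Lrp co-receptors, and R-spondins raise receptor levels at the membrane. In the telencephalon the cortical hem, a strip of the medial wall beside the choroid plexus, is a known source of Wnt2b, Wnt3a, Wnt5a and Wnt8b, while Wnt7a and Wnt7b are made widely in the cortex. Lats1 and Lats2 are the Hippo pathway kinases that restrain the co-activators YAP and TAZ.

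Gene counts summed to between 16566763 and 45803152 per dKO library and between 12906561 and 39263370 per WT library. Lats1 stood at 59.8 ± 1.07 CPM (read counts scaled to library depth) in dKO libraries and 132 ± 4.55 CPM in WT libraries (SD, n = 4 and 5), while Lats2 spanned 36.3 to 56.4 CPM in dKO and 20.2 to 32.4 CPM in WT, which does not check the deletion because the floxed exons were not given. Reads assigned to no gene made up 39.3% to 41.3% in WT 2, WT 3 and WT 4 and 32% to 35.6% in the other 6 libraries, so results are also given without those 3. Gene counts per spike-in count averaged 79.1 ± 5.9 in dKO libraries and 58.1 ± 6.1 in WT libraries, a 1.36-fold difference (two-sided exact permutation test over 126 assignments, p = 0.00794). Each gene was tested per cell, with library size set to the spike-in total, and relative to the other genes, with trimmed-mean (TMM) scaling. Both were edgeR quasi-likelihood fits to all 17182 genes tested, and a gene was called at a Benjamini-Hochberg adjusted p under 0.05 over all of them. CPM values below are TMM-scaled, and fold changes are log2 of dKO over WT.

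Per cell, 21 of the 32 members rose in dKO telencephalon, which is 65.6%, against 61.1% rises among all genes tested. The median per-cell log2 fold change of all genes was 0.43, so a rise per cell was the usual outcome and the members' share was near that background. No member fell per cell in edgeR, at adjusted or unadjusted p under 0.05, nor in DESeq2, against 0.698% falls among all genes. Relative to other genes, 7 members rose, which were Wnt4, Wnt5a, Wnt9a, Wnt11, Fzd2, Fzd7 and Sfrp4, against a background of 13.7%. Another 4 fell, which were Wnt7b, Fzd1, Fzd9 and Sfrp1, against 12%. The 11 calls made up 34.4% of the members, against 25.7% of all genes. In the relative CPM, 8 members had groups that did not overlap, against 22.3% of all genes. Of these, 7 had dKO above (12.6% of all genes) and 1 had dKO below (9.74%). Per spike-in count, 11 members had groups that did not overlap, all with dKO above, against 48.6% of all genes. In bulk tissue, less RNA of a gene per cell and fewer cells that make it cannot be told apart.

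**Figure D1:**
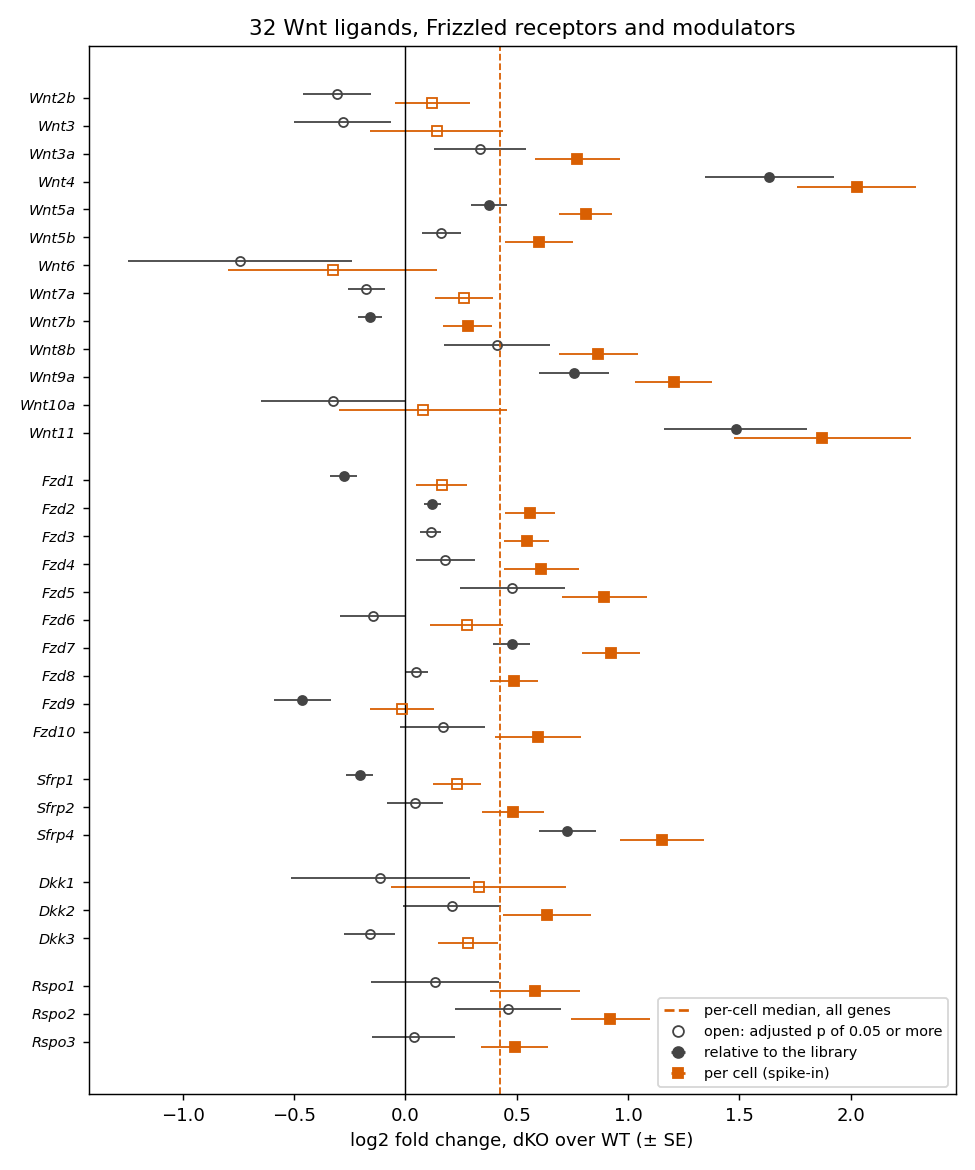
Log2 fold change (dKO over WT) of the 32 members, per cell (squares) and relative to other genes (circles), with standard errors from the edgeR fits, filled where called. The dashed line marks the per-cell median of all genes, 0.43. The relative changes lie on both sides of 0, with Wnt4 and Wnt11 farthest to the right, while 2 members, Wnt6 and Fzd9, lie below 0 per cell.

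Among the ligands, 8 of the 13 described rose per cell (61.5%, against 61.1% of all genes). Relative to other genes 4 rose (30.8%, against 13.7%) and 1 fell (7.69%, against 12%). Wnt4, which signals in kidney and gonad development, had 4.15, 1.73, 2.60 and 2.44 CPM in the 4 dKO libraries, against 0.841, 0.853, 1.31, 0.928 and 0.538 CPM in the 5 WT libraries. Every dKO library lay above every WT library, and dKO 1 was the highest. Its relative log2 fold change was 1.63 (SE 0.29, adjusted p = 0.00227) and its per-cell change was 2.03 (SE 0.27, adjusted p = 2.58e-07). Wnt11, best known for acting on cell movement without β-catenin, was scarce, with 32, 9, 18 and 9 reads in dKO libraries and 2, 5, 7, 8 and 6 in WT libraries. Scaled for depth, this was 0.709, 0.325, 0.513 and 0.549 CPM in dKO, against 0.153, 0.142, 0.229, 0.256 and 0.154 CPM in WT. The groups did not overlap, and the relative change was 1.48 (SE 0.32, adjusted p = 0.0063).

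Wnt9a, a ligand with roles in joint formation, had 7.83, 9.60, 9.78 and 10.1 CPM in dKO libraries, against 7.57, 5.63, 4.52, 4.25 and 5.97 CPM in WT libraries. The lowest dKO library was only just above WT 1, the highest WT library. The relative change was 0.76 (SE 0.16, adjusted p = 0.00502) and the per-cell change 1.20 (SE 0.17). Wnt5a, the main ligand of Ror2 and of β-catenin-independent signalling, had 34.3, 28.1, 31.96 and 30.9 CPM in dKO libraries, against 23.4, 27.0, 25.0, 24.6 and 20.9 CPM in WT libraries. Its groups did not overlap either, but the change was smaller, 0.38 (SE 0.08, adjusted p = 0.00582) relative and 0.81 (SE 0.12) per cell. Its close paralogue Wnt5b averaged 10.1 ± 0.737 CPM in dKO and 8.999 ± 0.764 CPM in WT. Wnt5b rose per cell by 0.60 (SE 0.15, adjusted p = 0.00123), while its relative change of 0.16 (SE 0.09) was not called.

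**Figure D2:**
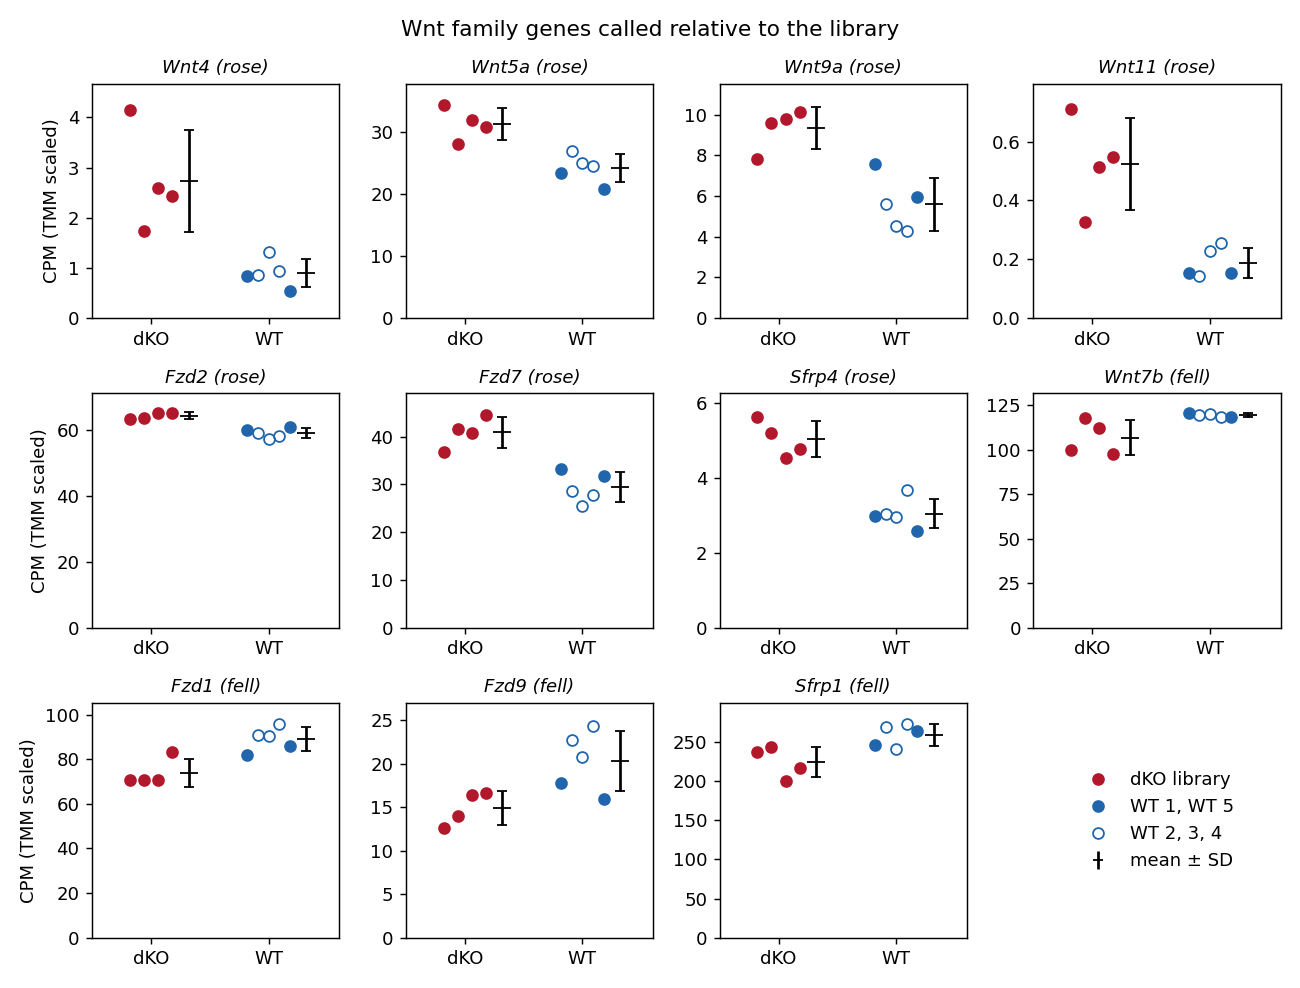
TMM-scaled CPM of the 11 members called in the relative fit, 1 point per library, dKO left and WT right, with bars for the mean ± SD and open circles for WT 2, WT 3 and WT 4. The 7 that rose have every dKO library above every WT library, and of the 4 that fell only Wnt7b has groups that do not overlap.

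Wnt7b, a cortical ligand that also guides the growth of brain vessels, was the most abundant Wnt per length, at 21.9 ± 1.99 CPM per kilobase of exon in dKO and 24.4 ± 0.23 in WT. Its 4 dKO libraries had 100.2, 118, 112 and 97.4 CPM, against 120.8, 119.6, 120.4, 118.4 and 118.3 CPM in WT libraries. All dKO libraries lay below all WT libraries, but dKO 2 was close to the lowest WT library. The relative change was -0.16 (SE 0.05, adjusted p = 0.0459), whereas per cell it rose by 0.28 (SE 0.11, adjusted p = 0.026), less than the median of all genes. The relative call was lost when any 1 library other than dKO 2 was left out (changes of -0.18 to -0.12, adjusted p from 0.0607 to 0.124), and the per-cell call without WT 2, dKO 2 or dKO 3. Wnt7a, its partner in vessel growth, averaged 41.2 ± 2.73 CPM in dKO and 46.2 ± 5.13 CPM in WT, a relative change of -0.17 (SE 0.08, adjusted p = 0.143). The 2 ligands together made up 57.4% of all Wnt reads in dKO and 65.6% in WT. The share of Wnt7b alone was 41.3 ± 0.415% in dKO and 47.2 ± 1.32% in WT, without overlap, and Wnt9a, Wnt4 and Wnt11 took shares that did not overlap in the other direction. The summed Wnt reads were 258.7 ± 22.9 CPM in dKO and 253.1 ± 8.3 CPM in WT, with overlap. Per 10000 spike-in counts they were 204.4 ± 28.6 in dKO and 147.1 ± 11.5 in WT, without overlap. That log2 difference was 0.468, near the 0.447 of all gene counts per spike-in count. On this scale 48.6% of all genes did not overlap.

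Of the ligands of the cortical hem, Wnt3a, Wnt8b and Wnt2b had a wider spread among dKO libraries (SD) than the difference between the group means. Wnt5a, the other hem ligand named above, did not, at 31.31 ± 2.587 CPM in dKO and 24.15 ± 2.242 CPM in WT. Within dKO it was lowest in dKO 2, and within WT it was highest in WT 2. Wnt8b had 31.2, 54.1, 46.1 and 25.1 CPM in dKO libraries, against 45.5, 28.7, 23.1, 22.9 and 29.1 CPM in WT libraries. Wnt3a had 7.12, 11.6, 11.03 and 5.67 CPM in dKO, against 9.63, 6.28, 6.42, 7.10 and 6.48 CPM in WT. Both were high in dKO 2, dKO 3 and WT 1. Per cell both rose, Wnt8b by 0.87 (SE 0.18, adjusted p = 0.000144) and Wnt3a by 0.77 (SE 0.19, adjusted p = 0.000879). Neither was called relative to other genes, where the 95% intervals ran from -0.11 to 0.94 for Wnt8b and from -0.12 to 0.78 for Wnt3a. Wnt2b lay lower in dKO, at 6.78 ± 1.78 CPM against 8.52 ± 0.602 CPM in WT, and passed neither test (relative change -0.31, SE 0.15, adjusted p = 0.171). The scarce ligands Wnt3, Wnt6 and Wnt10a stayed at or under 1.05 CPM in every library and passed neither test.

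The R-spondins followed the same libraries. Rspo3, a vessel and hem factor and the most abundant R-spondin per length (18.1 ± 5.03 CPM per kilobase in dKO, 17.7 ± 3.92 in WT), had 45.1, 68.6, 69.7 and 39.8 CPM in dKO libraries. The WT libraries had 75.3, 55.4, 47.1, 45.4 and 51.0 CPM. Rspo2 had 26.9, 51.0, 40.9 and 23.9 CPM in dKO libraries, against 39.4, 27.2, 20.6, 19.9 and 24.6 CPM in WT libraries. Rspo1 spanned 9.64 to 29.6 CPM in dKO and 13.8 to 26.4 CPM in WT. All 3 were highest in dKO 2 and dKO 3 within dKO and in WT 1 within WT. They rose per cell, by 0.92 (Rspo2), 0.58 (Rspo1) and 0.49 (Rspo3), as did 61.1% of all genes. In DESeq2 neither Rspo1 (adjusted p = 0.184) nor Rspo3 (adjusted p = 0.0619) was called per cell. No R-spondin was called relative to other genes in edgeR, at unadjusted p under 0.05 or in DESeq2. The ratio of Rspo2 to Rspo3 reads, which needs no scaling, was 0.595, 0.743, 0.587 and 0.600 in dKO libraries, against 0.523, 0.490, 0.437, 0.438 and 0.483 in WT libraries. It did not overlap between groups, although each of the 2 genes did. This is 1 of 17 ratios, described below, that were chosen with fold changes known, and 8 of them did not overlap. Rspo1 to Rspo3 overlapped, at 0.325 ± 0.079 in dKO and 0.32 ± 0.0263 in WT. Rspo2 to Rspo1 did not, at 1.99 ± 0.342 in dKO and 1.49 ± 0.0844 in WT. Fzd10, a receptor of the dorsal midline, had 6.27, 9.02, 8.21 and 6.16 CPM in dKO libraries, against 8.79, 4.89, 5.83, 5.598 and 8.37 CPM in WT libraries. It was high in dKO 2, dKO 3 and WT 1 too, and also in WT 5.

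**Figure D3:**
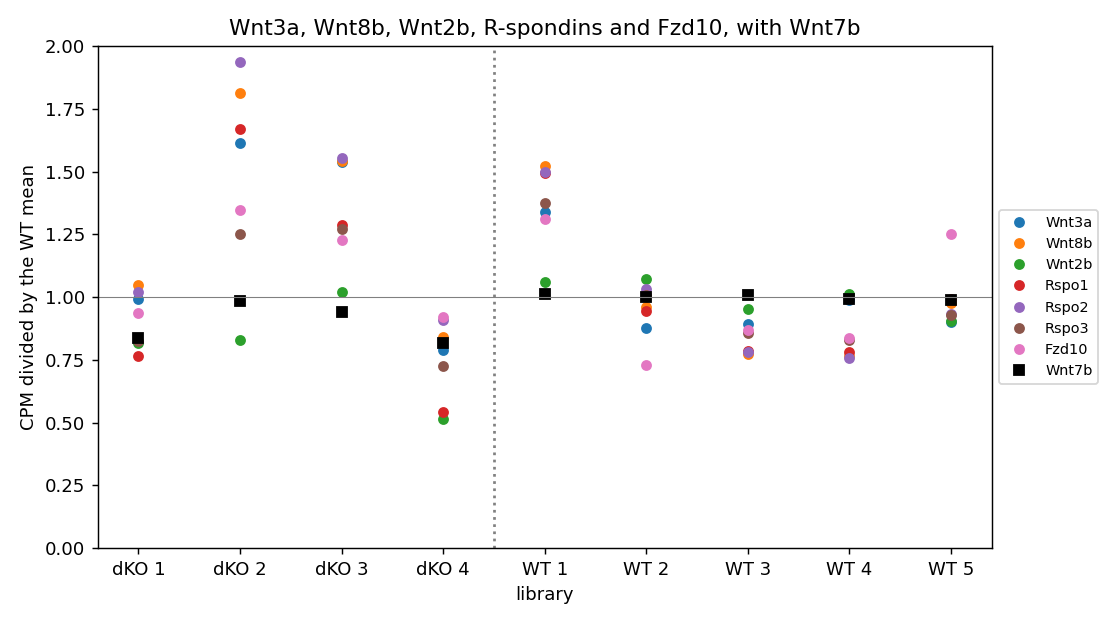
TMM-scaled CPM of 8 members divided by the WT mean of each gene, by library, dKO left and WT right, 1 point per gene. Wnt3a, Wnt8b, the R-spondins and Fzd10 are high in dKO 2, dKO 3 and WT 1, and Fzd10 also in WT 5. Within dKO they are lowest in dKO 4. Wnt2b is not high in dKO 2, and Wnt7b lies lowest in dKO 1 and dKO 4.

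The hem marker list was also highest in dKO 2 and dKO 3 within dKO and in WT 1 within WT. Its 7 genes, all detected, summed to 59.8, 81.1, 78.7 and 68.1 CPM in dKO libraries, against 67.6, 57.2, 54.8, 47.7 and 50.3 CPM in WT libraries, with overlap at WT 1. Lmx1a, a transcription factor that defines the hem, had 11.88, 19.85, 18.22 and 11.1 CPM in dKO libraries, against 20.48, 14.53, 12.84, 10.59 and 10.52 CPM in WT libraries, high in the same 3 libraries as Wnt8b, Wnt3a and the R-spondins. Lmx1a was not called relative to other genes (0.18, SE 0.22, adjusted p = 0.592). Bmp7 was also highest in dKO 2 and dKO 3 within dKO and in WT 1 within WT. Msx1 and Msx2 were highest in dKO 2 and dKO 3 within dKO, but not in WT 1 within WT. Bmp6 went differently, with 12.3, 10.25, 12.55 and 17.69 CPM in dKO libraries. Bmp4 had 7.83, 7.54, 7.81 and 5.74 CPM in dKO libraries and was highest in WT 1 within WT. Of the 6 tested, Bmp6 rose by 1.62 and Bmp4 by 1.09 relative to other genes, and Lmx1a, Bmp7, Msx1 and Msx2 did not pass. The Bmp4 call was lost without WT 2, WT 3 and WT 4 (0.76, adjusted p = 0.0684). Choroid plexus markers summed to 166 to 225 CPM in dKO and 118 to 447 CPM in WT, with WT 2 and WT 3 highest. Diencephalon markers summed to 12.2, 19.1, 16.1 and 9.33 CPM in dKO libraries, against 15.6, 12.6, 10.9, 9.79 and 16.1 CPM in WT libraries, high in dKO 2, dKO 3, WT 1 and WT 5. Erythroid markers summed to 2580, 3570, 3270 and 1960 CPM in dKO libraries, against 6630, 3550, 2460, 2550 and 4290 CPM in WT libraries, again highest in dKO 2 and dKO 3 within dKO and in WT 1 within WT. Myeloid markers summed to 74.7 to 97.2 CPM in dKO and 63 to 77.4 CPM in WT, and surface ectoderm markers to 6.14 to 14.3 CPM in dKO and 4.32 to 10.3 CPM in WT. The 10 telencephalon markers, which were all present, summed to 518 to 524 CPM in dKO and 566 to 599 CPM in WT. Emx1 and Dlx2 were among those that fell relative to other genes. Meningeal markers overlapped, at 852 to 1200 CPM in dKO and 935 to 1160 CPM in WT, and so did endothelial markers, at 267 to 350 CPM in dKO and 273 to 353 CPM in WT. The part of these cell types in the values of the Wnt genes was not tested.

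All 10 Frizzled receptors were above the count minimum. Of these, 7 rose per cell (70%, against 61.1% of all genes). Relative to other genes 2 rose (20%, against 13.7%) and 2 fell (20%, against 12%). Per kilobase of exon, Fzd3 led in dKO at 20.99 ± 1.45 CPM, followed by Fzd1 at 17.6 ± 1.51 and Fzd2 at 17.5 ± 0.295. In WT, Fzd1 led at 21.3 ± 1.25, followed by Fzd3 at 19.4 ± 0.367 and Fzd2 at 16.1 ± 0.398. Fzd7 at 9.03 ± 0.707 was above Fzd9 at 6.49 ± 0.843 in dKO, whereas in WT Fzd7 at 6.49 ± 0.689 was below Fzd9 at 8.87 ± 1.502. Fzd4, which binds Norrin as well as Wnts, was the least abundant, at 0.974 ± 0.157 in dKO and 0.863 ± 0.105 in WT.

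Fzd7, a receptor of neural and embryonic progenitors, had 36.7, 41.6, 40.9 and 44.5 CPM in dKO libraries, against 33.3, 28.6, 25.5, 27.9 and 31.7 CPM in WT libraries. All dKO libraries were above all WT libraries. The relative change was 0.48 (SE 0.08, adjusted p = 0.00195) and the per-cell change 0.92 (SE 0.13, adjusted p = 9.78e-07). Fzd2, which shares the Wnt5a pathway, had 63.1, 63.4, 65.2 and 65.1 CPM in dKO libraries, against 59.8, 58.9, 57.2, 58.1 and 60.9 CPM in WT libraries. This was a small difference with tight groups, 0.12 relative (SE 0.04, adjusted p = 0.0318) and 0.56 per cell (SE 0.11). The relative call was lost without any 1 of WT 2, WT 3, WT 4, dKO 2, dKO 3 or dKO 4 (adjusted p up to 0.0882).

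Fzd1, of the same subfamily as Fzd2 and Fzd7, had 70.7 CPM in dKO 1, dKO 2 and dKO 3 and 83.4 CPM in dKO 4, against 82.2, 91.1, 90.7, 95.9 and 86.2 CPM in WT libraries. Only dKO 4 reached into the WT range. The relative change was -0.28 (SE 0.06, adjusted p = 0.00662), and per cell it was 0.16 (SE 0.11, adjusted p = 0.21), which was not called. Fzd9, known from hippocampal progenitors, had 12.6, 13.97, 16.4 and 16.6 CPM in dKO libraries, against 17.8, 22.7, 20.7, 24.4 and 16 CPM in WT libraries. WT 5 lay inside the dKO range. Its relative change was -0.46 (SE 0.13, adjusted p = 0.0217) and its per-cell change was -0.01 (SE 0.14), beside a median of 0.43 for all genes. The relative call was lost without WT 2, WT 4, dKO 1 or dKO 2 (changes of -0.54 to -0.38 over all 9 single leave-outs, adjusted p up to 0.0714), and the per-cell change was positive without WT 3, WT 4 or dKO 1, at most 0.11, and not called.

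**Figure D4:**
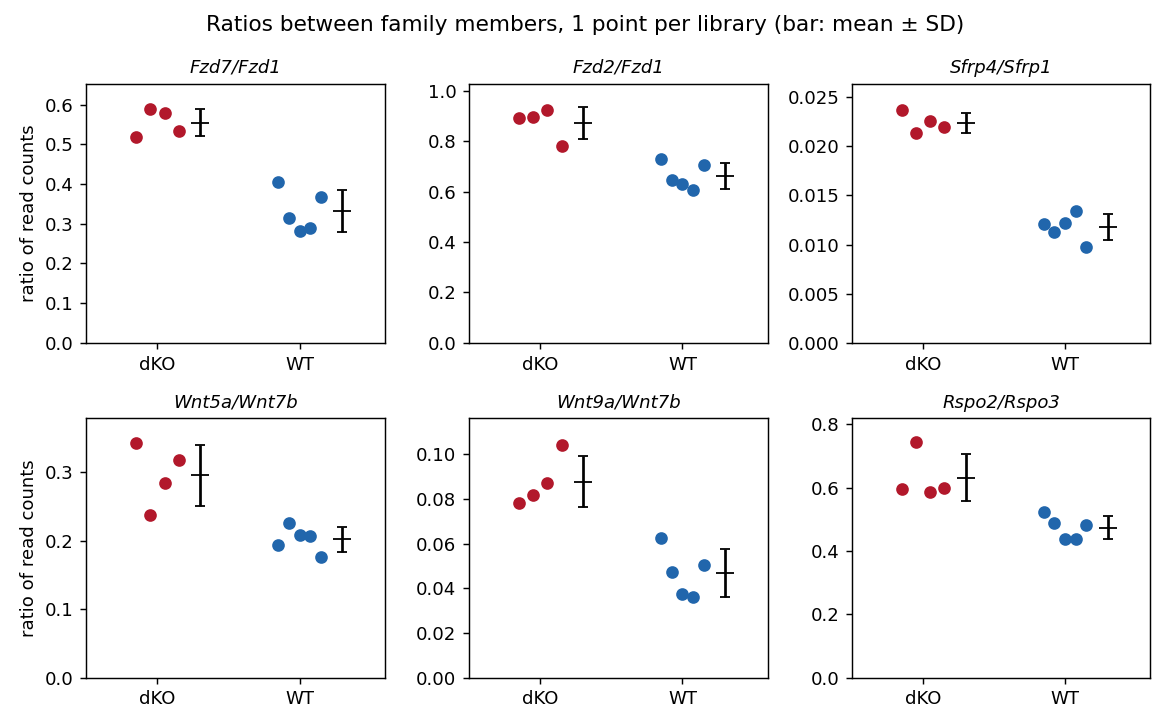
Read ratios of 6 of the 8 member pairs without overlap, within each library, 1 point per library, dKO left and WT right, with bars for the mean ± SD. Every dKO library is above every WT library, with the widest gap for Sfrp4 to Sfrp1.

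Ratios of reads within a library put the unequal moves on a scale that needs no normalisation, and 17 were computed. Fzd7 to Fzd1 was 0.519, 0.589, 0.578 and 0.533 in dKO libraries, against 0.406, 0.314, 0.281, 0.290 and 0.368 in WT libraries, with no overlap. The ratios of Fzd2 to Fzd1 and of Fzd7 to Fzd2 did not overlap either. By contrast, the Wnt7b to Wnt7a ratio was 2.62 ± 0.388 in dKO and 2.62 ± 0.34 in WT. In all, 8 of the 17 did not overlap, each with dKO above. That direction depends on which gene of a pair was set on top. The share without overlap among other gene pairs was not computed. The pairs were chosen with fold changes known, so these are descriptions.

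The other Frizzled genes were not called relative to other genes. Fzd3, a planar polarity receptor of axon tracts, had 294.1, 257.8, 270.6 and 252.2 CPM in dKO libraries, against 251.6, 254.5, 242.3, 246.2 and 248.0 CPM in WT libraries. The groups overlapped, and its relative change was 0.11 (SE 0.05, adjusted p = 0.0876). Per cell it rose by 0.55 (SE 0.10, adjusted p = 4.2e-05). Fzd8, Fzd4, Fzd5 and Fzd10 also rose per cell, by 0.49, 0.61, 0.89 and 0.60. Fzd6, which takes part in hair and tissue polarity, was not called per cell (0.28, SE 0.16, adjusted p = 0.142). Fzd5 had 12.46, 11.9, 9.44 and 6.65 CPM in dKO libraries, against 12.2, 5.69, 6.12, 5.69 and 7.91 CPM in WT libraries, so WT 1 was close to the dKO maximum. Summed over the family, Frizzled reads were 580 ± 14.6 CPM in dKO and 558.5 ± 9.13 CPM in WT, without overlap. Per 10000 spike-in counts they were 457 ± 27.9 in dKO and 325 ± 30.9 in WT. That log2 difference was 0.495, beside 0.447 for all gene counts per spike-in count.

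Sfrp1, a broad Wnt binder of the ventricular zone, was the most abundant member of all per length, at 51.4 ± 4.46 CPM per kilobase in dKO and 59.3 ± 3.26 in WT. It had 237.6, 243.6, 200.9 and 217.5 CPM in dKO libraries, against 246.7, 269.2, 241.5, 273.9 and 264.3 CPM in WT libraries. Only dKO 2 was above the lowest WT library. The relative change was -0.20 (SE 0.06, adjusted p = 0.0287), and the per-cell change of 0.23 (SE 0.11, adjusted p = 0.0594) was not called. The relative call was lost without WT 2, WT 4, WT 5, dKO 3 or dKO 4 (adjusted p up to 0.0926). Per cell it was called without WT 4, WT 5 or dKO 1 (adjusted p from 0.0388). Sfrp4, which is known from bone and the uterus, moved the other way. It had 5.63, 5.20, 4.53 and 4.76 CPM in dKO libraries, against 2.98, 3.04, 2.95, 3.68 and 2.59 CPM in WT libraries. The groups were well apart, with a relative change of 0.73 (SE 0.13, adjusted p = 0.00221) and a per-cell change of 1.15 (SE 0.19). The Sfrp4 to Sfrp1 ratio was 0.0224 ± 0.00102 in dKO and 0.0118 ± 0.00134 in WT. Sfrp2 rose per cell by 0.48 (SE 0.14) and had a relative change of 0.05 (SE 0.13).

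No Dickkopf gene was called relative to other genes in edgeR, at unadjusted p under 0.05 or in DESeq2. Of the 3 described, 1 rose per cell, against 61.1% of all genes. Dkk3, the most abundant per length (7.89 ± 1.23 CPM per kilobase in dKO, 8.88 ± 1.21 in WT), is a divergent family member that does not block Wnts in most assays. It had 23.9, 30.4, 29.7 and 22.02 CPM in dKO libraries, against 35.8, 29.7, 27.5, 25.0 and 31.2 CPM in WT libraries. The groups overlapped widely, and its per-cell change of 0.28 (SE 0.14, adjusted p = 0.0708) was called only when dKO 1 (0.38) or dKO 4 (0.34) was left out. Dkk2, a context-dependent Lrp modulator, had 9.64, 14.5, 11.5 and 8.42 CPM in dKO libraries, against 8.33, 7.59, 8.55, 7.81 and 15.2 CPM in WT libraries. It rose per cell by 0.64 (SE 0.20, adjusted p = 0.00649) but was not called in DESeq2 (adjusted p = 0.0725), and WT 5 was above every dKO library. Dkk1, the classical Lrp blocker, reached at most 0.80 CPM in any library and passed neither test.

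The 10 members below the minimum were not tested. Their summed counts over 9 libraries were 70 for Wnt16, 71 for Dkkl1, 20 for Sfrp5, 15 for Wnt9b, 9 each for Wnt2 and Wnt10b, 5 for Rspo4 and 3 each for Wnt1 and Wnt8a. Dkk4 had 0 counts of 273771912, which allows up to 3 counts, or 1.1e-06% of all gene counts. These limits cover counting error only. Sfrp5 had 8 counts in dKO 3, 6 in dKO 4 and at most 2 in any other library.

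The promoters of 4 members that rose and 1 that fell are shown because members that moved in the same direction can be compared in them. TEAD factors are the DNA-binding partners of YAP and TAZ, and TCF/LEF factors those of β-catenin. RefSeq windows of 300 bases (250 before to 50 after the annotated start, GRCm38.p6) were held for 20 of the 32 genes, 23 windows in all. The TEAD core searched was GGAATG and the TCF/LEF core was CTTTGA, each on both strands. Capitals mark matches to the TCF/LEF core, read on the opposite strand.
Wnt4, chr4:137277385-137277684, plus strand: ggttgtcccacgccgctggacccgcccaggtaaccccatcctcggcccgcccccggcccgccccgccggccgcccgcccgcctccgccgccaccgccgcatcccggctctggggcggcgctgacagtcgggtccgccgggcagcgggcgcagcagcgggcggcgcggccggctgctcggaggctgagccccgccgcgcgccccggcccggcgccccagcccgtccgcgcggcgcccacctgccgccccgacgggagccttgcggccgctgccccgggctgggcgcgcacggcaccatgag
Wnt9a, chr11:59306680-59306979, plus strand: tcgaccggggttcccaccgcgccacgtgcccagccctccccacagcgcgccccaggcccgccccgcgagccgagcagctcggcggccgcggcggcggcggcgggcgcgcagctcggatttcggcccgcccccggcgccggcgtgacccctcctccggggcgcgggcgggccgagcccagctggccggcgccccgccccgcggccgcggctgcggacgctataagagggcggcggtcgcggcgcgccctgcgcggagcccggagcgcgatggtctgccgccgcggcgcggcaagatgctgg
Wnt11, chr7:98834862-98835161, plus strand: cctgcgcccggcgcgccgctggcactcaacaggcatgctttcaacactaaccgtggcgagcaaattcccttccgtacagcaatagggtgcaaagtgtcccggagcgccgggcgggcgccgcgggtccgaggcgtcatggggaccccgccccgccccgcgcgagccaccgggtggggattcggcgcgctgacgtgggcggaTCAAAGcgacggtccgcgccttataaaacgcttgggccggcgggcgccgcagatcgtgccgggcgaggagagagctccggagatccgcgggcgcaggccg
Fzd7, chr1:59481897-59482196, plus strand: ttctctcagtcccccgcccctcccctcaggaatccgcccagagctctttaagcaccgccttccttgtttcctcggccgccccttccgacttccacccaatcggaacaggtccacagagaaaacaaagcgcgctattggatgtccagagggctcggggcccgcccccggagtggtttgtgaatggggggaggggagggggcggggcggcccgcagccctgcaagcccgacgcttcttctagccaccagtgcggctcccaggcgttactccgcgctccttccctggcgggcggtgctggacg
Fzd1, chr5:4758167-4758466, minus strand: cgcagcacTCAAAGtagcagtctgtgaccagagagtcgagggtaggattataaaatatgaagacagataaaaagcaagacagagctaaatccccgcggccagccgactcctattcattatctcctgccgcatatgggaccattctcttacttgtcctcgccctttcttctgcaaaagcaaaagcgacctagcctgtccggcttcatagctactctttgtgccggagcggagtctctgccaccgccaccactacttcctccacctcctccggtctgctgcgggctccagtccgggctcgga

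GGAATG was found in 1 of the 23 member windows, that of a Wnt5b start, and in 14.7% of all 32851 windows. It was in 0 of the 5 windows of genes that rose and 0 of the 2 of genes that fell. CTTTGA was found in 4 of 23 member windows, and in 16% of all windows. It was in 1 of the 5 windows of genes that rose and 1 of the 2 of genes that fell. The second Wnt11 window and the Fzd9 window, which are not shown, hold neither motif. In the windows shown it lies 50 bases before the Wnt11 start and 242 bases before the Fzd1 start. The Wnt4 and Wnt9a windows are 84.3% and 83.3% G and C, against a median of 52.7% over all windows. Such matches describe letters only, and sites outside the windows were not searched.

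The genes around these members were taken from pathway lists. Over all genes tested, 13.7% rose and 12% fell relative to other genes, and 61.1% rose per cell. Of 9 secretion and processing genes tested, 6 rose and 1 fell relative to other genes, and 7 rose per cell. The cargo receptors Tmed5 (0.48) and Tmed10 (0.24), which carry Wnts out of the endoplasmic reticulum, rose, and Porcn (-0.43), the acyltransferase that lipidates Wnts, fell. The median relative change of the list was 0.24, against -0.01 for all genes. Of 17 co-receptor and receptor-turnover genes tested, 4 rose and 1 fell, and 14 rose per cell, with Mesdc2 (0.22), the Lrp chaperone, Ryk (0.20) and Lrp4 (0.43) having the smallest adjusted p. Of 12 other secreted modulators, 1 rose and 3 fell, and 6 rose per cell. Apcdd1 (-0.69), a membrane inhibitor of Wnt signals, fell. So did 2610109H07Rik (-0.70), the older symbol of Draxin, a secreted axon guidance protein, but its groups overlapped. It had 40.4 to 64.0 CPM in dKO, against 59.1 CPM in WT 1 and 68.5 CPM in WT 5. WT 2, WT 3 and WT 4 had 92.2, 104.7 and 99.96 CPM. Leaving out those libraries, the edgeR call for Draxin was lost (-0.29, adjusted p = 0.325). Shisa3 (1.81), a Frizzled maturation inhibitor, rose, but it was scarce, at 1.19 CPM in dKO and 0.41 CPM in WT. Its groups overlapped, with 0.366 CPM in dKO 4 and 0.993 CPM in WT 1. Without WT 2, WT 3 and WT 4 it was not called (1.01, adjusted p = 0.386).

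Of 20 intracellular core genes tested, 8 fell relative to other genes and 0 rose in edgeR, at unadjusted p under 0.05 or in DESeq2. Per cell, 13 of the 20 rose. Apc2 (-0.51) and Tnks (-0.18), which act on the β-catenin destruction complex, and Bcl9 (-0.45), a β-catenin co-activator, had the smallest adjusted p. Their list median was -0.11. Of 11 TCF factors and feedback targets, 3 fell, which were Lef1 (-0.54), Nkd1 (-0.54) and Tnfrsf19 (-0.20), and Tcf7l1 (0.35) rose, while 7 of the 11 rose per cell. Axin2, the usual readout of β-catenin activity, averaged 54.4 CPM in dKO and 60.8 CPM in WT (relative change -0.16, adjusted p = 0.314). Of 17 planar polarity genes, 4 rose and 3 fell, and 9 rose per cell. Daam2 (1.16), a formin that binds Dishevelled, and Intu (1.07), a cilium assembly protein, rose and Celsr3 (-0.59), an adhesion receptor of axon tracts, fell. Per cell, no gene of these 6 lists fell in edgeR, at unadjusted p under 0.05 or in DESeq2.

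Leaving out WT 2, WT 3 and WT 4, so that 4 dKO were set against 2 WT libraries, kept 3 relative calls among the members, against 2.51% rises and 0.949% falls among all genes. Those were Wnt4 (2.11, adjusted p = 0.0376), Wnt5a (0.51, adjusted p = 0.0298) and Sfrp4 (0.88, adjusted p = 0.0375). None fell in edgeR, though 3 members did at unadjusted p under 0.05. The other 8 lost the call, with relative changes of 0.48 for Wnt9a, 1.77 for Wnt11, 0.33 for Fzd7, 0.09 for Fzd2, -0.16 for Wnt7b, -0.19 for Fzd1, -0.18 for Fzd9 and -0.19 for Sfrp1. Per cell, 15 members rose, against 49.1% of all genes. Wnt7b, Fzd5, Fzd10, Sfrp2, Dkk2, Rspo1 and Rspo3 were then no longer called per cell, with changes of 0.23 to 0.48, and Wnt7a was called (0.38, adjusted p = 0.0495). Among the pathway lists, relative calls numbered 0, 0, 1, 1, 0 and 2 in the order given.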

How the data were processed

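Libraries were made from total telencephalic RNA with a stranded kit, per the labels' protocols, and reads were aligned with STAR to mm9 and counted with HTSeq, per the submitters' processing notes, which give no versions. The deposited files hold whole-number counts per gene symbol, with 92 spike-ins and HTSeq's summary lines; those lines were left out of library sizes. The strand setting of the counting was not given. Genes kept by filterByExpr (17182, holding 99.9% of gene counts) were tested with edgeR 4.0.16 in R 4.3.3, with DESeq2 1.42.0 as an alternative, after tests on simulated data. Per-cell levels use total spike-in counts as library size, so error in cell counting or spike-in volume moves them. Exon lengths came from GENCODE M21 (GRCm38), and promoters from the RefSeq table. No 2 libraries of a group agreed within sampling noise (chi-square per degree of freedom 4.28 or more). Each library is a separate embryo per the labels.

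The members and lists were chosen with earlier results of these data known. Values in every library are given for members called in the relative fit and for the most abundant member per length of each family, and additional members are shown where they varied together (chosen after their values were seen). In each pathway list the 3 genes with the smallest relative adjusted p are named; Axin2 was chosen after its value was seen. Of the list genes, 6 were matched under older symbols. The alternatives tried were DESeq2, other scalings and filters, a replicate block, and leaving out libraries. A result of a further gene is not reported here.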

Additional observations from a re-analysis of the deposited data

Results flagged for a closer look

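Over 128 groups of 4 or 5 libraries tested with Dixon's criterion, 6 had a library far from the others. This is near the 1 in 20 or so that chance gives. WT 1 had 9.63 CPM of Wnt3a, with the nearest WT library at 7.10 CPM, and 45.5 CPM of Wnt8b, with the nearest at 29.1 CPM. Fzd1 had 83.4 CPM in dKO 4, with the nearest dKO library at 70.7 CPM. Wnt6 had 0.549 CPM in dKO 4, with the nearest dKO library at 0.257 CPM. Dkk2 had 15.2 CPM in WT 5, with the nearest WT library at 8.55 CPM. Wnt10a had 0.151 counts per 10000 spike-in counts in dKO 4, with the nearest dKO library at 0.304. Reads were few in dKO 4, with 9 for Wnt6 and 3 for Wnt10a.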

How the results depend on the processing

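Of 186 alternatives for the 11 members called relative to other genes, 148 kept direction and call, 38 kept the direction only and 0 reversed; Wnt4, Wnt5a and Sfrp4 kept the call in all of theirs. The number called was 11 in the full set, 11 with DESeq2, 9 without a count filter, and 7 to 12 when 1 library was left out. It was 7 without WT 2 and 7 without WT 4. Without WT 2, WT 3 and WT 4 it was 3, and relative calls in the pathway lists were 0 for secretion, 0 for co-receptors, 1 for other secreted modulators, 1 for the intracellular core, 0 for TCF factors and 2 for planar polarity. The per-cell count for TCF factors was then 4, against 7. Fewer libraries were fitted there, and 6 remain. Per cell, 17 to 24 members were called when 1 library was left out and 18 with DESeq2, against 21. The Fzd9 per-cell change ran from -0.0887 to 0.11 when 1 library was left out, was 0.25 without WT 2, WT 3 and WT 4, and was never called; the cause was not tested. The difference in gene counts per spike-in ran from 0.39 to 0.50 (log2) when 1 library was left out. Without WT 2, WT 3 and WT 4 it was 0.45 with an exact permutation p of 0.0667, the smallest that 15 assignments allow. Libraries with the same replicate number correlated by -0.158, -0.129, -0.289 and 0.159 in their deviations, so the numbers were not taken as pairs; a replicate block over 8 libraries gave 21 per-cell and 9 relative calls, against 22 and 10 in the same libraries without it. Wnt11 was not tested at a mean count of at least 50. Depth limits Wnt3, Wnt6, Wnt10a, Wnt11 and Dkk1.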

Other observations

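Among the 42 members, 4 pairs are next to each other in the RefSeq gene order. Wnt3a and Wnt9a lie together on chromosome 11, and Wnt9a rose relative to other genes by 0.76 while Wnt3a had a change of 0.33 that was not called. Wnt6 and Wnt10a, on chromosome 1, both passed neither test. Wnt9b and Wnt3, and Wnt10b and Wnt1, make up the other pairs, and only Wnt3 of these was tested.

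Grhl3, an epidermal transcription factor from the surface ectoderm list, rose in dKO telencephalon relative to other genes by 1.26 (SE 0.23, adjusted p = 0.00232), at 2.85 CPM in dKO and 1.19 CPM in WT, but it was not called without WT 2, WT 3 and WT 4 (0.83, adjusted p = 0.0831). The other 3 genes of the list that were tested, Epcam (0.48), Cdh1 (-0.21) and Tfap2a (-0.09), were not called. Krt5, Krt14, Krt15, Trp63 and Esrp1 of the same list were not tested, with 3, 21, 8, 27 and 46 counts over all 9 libraries. Esrp1 had 1.77 CPM in dKO 4 and at most 0.144 CPM in any other library. Epcam (6.77 CPM) and Cdh1 (2.99 CPM) were also highest in dKO 4. Other genes of the list went the other way there. Tfap2a was lowest of all libraries in dKO 4 (0.183 CPM), and Grhl3 was lowest there within dKO (2.56 CPM). Krt5, Krt14 and Krt15 had 0 CPM in dKO 4. Grhl3 was chosen after its value was seen.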
